A study of Mus musculus with 79 samples.

Results

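Among the 23361 gene symbols counted in every library, 6 genes of the mouse major histocompatibility complex (MHC) are described here: H2-K1, H2-Q2, H2-Q4, H2-Q10, Gm11127 and H2-Ea-ps. They were selected on the correlation of their levels in macrophages and Schwann cells from the same animal, so that agreement, and the spread between animals that goes with it, is given below as a description with no test. They were also picked as genes of the MHC region, so that their shared position is part of the choice. Their levels in the distal nerve stump and the tests of repair group, sex and day were not used to pick them. All 6 genes passed the filter on low counts in every comparison, although in sorted cells H2-Q2, H2-Q10, Gm11127 and H2-Ea-ps did so through the animals in which they are high, as did H2-Q2 and H2-Ea-ps in the stump.

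The study asked how the timing of nerve repair changes the response of immune cells and glia. The common peroneal nerve of mice was joined to the tibial nerve through a conduit, either at once (immediate repair, with a sham incision at the earlier time) or 8 weeks after the injury (delayed repair), and tissue was collected 5 or 14 days later. Macrophages and Schwann cells were sorted from the regenerating bridge, and the distal nerve stump was taken whole on day 5. The 79 libraries came from 32 animals, 16 males and 16 females, and each library is 1 animal. Macrophage libraries numbered 9 for delayed and 8 for immediate repair on day 5, and 7 and 8 on day 14. Schwann cell libraries numbered 9 and 7 on day 5 and 7 and 8 on day 14, and stump libraries numbered 9 and 7. No uninjured nerve was among them, so immediate repair served as the reference. Macrophages and Schwann cells were isolated from mice of a line with enhanced green fluorescent protein in Schwann cells under the human S100β promoter, bred in house, and the labels state neither the background strain nor the MHC type of an animal.

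The MHC encodes the cell surface molecules that present peptides to T cells, and it is one of the regions in which inbred mouse strains differ most. Class I molecules (H2-K, H2-D and H2-L) sit on almost all cells with beta-2 microglobulin and show peptides from inside the cell to cytotoxic T cells, whereas the H2-Q, H2-T and H2-M genes encode the non-classical class Ib relatives. Class II molecules (the A and E heterodimers) show peptides taken up from outside and are made chiefly by macrophages, dendritic cells and B cells. H2-K1 encodes a classical class I heavy chain, H2-Q10 encodes a soluble class Ib protein known mainly from liver, and Gm11127 is a predicted class I-like gene. H2-Ea-ps is the alpha chain gene of the class II E molecule, which C57BL/6 mice do not express and several other strains do.

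The promoters of the class I members are shown because these genes are close relatives, of which H2-Q2, H2-Q4, H2-Q10 and Gm11127 followed one another in macrophages while H2-K1 did not. Promoters from RefSeq (build GRCm38.p6, 300 bases around the start of each gene) were matched for 5 of the 6 genes, the exception being H2-Ea-ps. H2-K1 has 2 overlapping entries, of which the first is shown. Capitals mark 4 motifs searched on both strands, no match overlapping another: TTTCACTTC (core of the interferon-stimulated response element), GGGATTNCC (a kappa B core), CCAAT and TATAAA.
H2-K1 (chr17:34000298-34000597, minus strand): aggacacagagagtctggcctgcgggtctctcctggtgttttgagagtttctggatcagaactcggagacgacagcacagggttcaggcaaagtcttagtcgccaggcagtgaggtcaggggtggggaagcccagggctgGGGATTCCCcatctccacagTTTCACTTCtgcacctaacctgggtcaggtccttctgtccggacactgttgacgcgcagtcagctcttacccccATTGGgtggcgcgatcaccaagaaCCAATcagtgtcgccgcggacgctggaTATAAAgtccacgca
H2-Q4 (chr17:35379367-35379666, plus strand): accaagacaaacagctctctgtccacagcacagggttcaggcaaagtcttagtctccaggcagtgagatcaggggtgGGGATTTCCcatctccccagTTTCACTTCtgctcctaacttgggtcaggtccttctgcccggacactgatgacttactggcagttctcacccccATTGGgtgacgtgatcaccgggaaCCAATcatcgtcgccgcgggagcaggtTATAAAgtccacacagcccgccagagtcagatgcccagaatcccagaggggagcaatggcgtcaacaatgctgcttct
H2-Q10 (chr17:35469839-35470138, plus strand): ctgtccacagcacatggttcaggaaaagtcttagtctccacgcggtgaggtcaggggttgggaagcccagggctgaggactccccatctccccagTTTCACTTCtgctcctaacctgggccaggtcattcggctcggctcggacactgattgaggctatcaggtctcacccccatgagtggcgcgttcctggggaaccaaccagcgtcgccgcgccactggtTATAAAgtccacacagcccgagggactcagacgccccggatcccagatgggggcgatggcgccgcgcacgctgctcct
H2-Q2 (chr17:35342057-35342356, plus strand): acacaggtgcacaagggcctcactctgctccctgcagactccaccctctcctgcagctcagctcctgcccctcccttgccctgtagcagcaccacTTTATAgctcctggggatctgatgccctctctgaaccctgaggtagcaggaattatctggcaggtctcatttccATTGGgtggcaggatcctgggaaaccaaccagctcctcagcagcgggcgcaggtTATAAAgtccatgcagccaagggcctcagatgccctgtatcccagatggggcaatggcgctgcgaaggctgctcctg
Gm11127 (chr17:36058322-36058621, minus strand): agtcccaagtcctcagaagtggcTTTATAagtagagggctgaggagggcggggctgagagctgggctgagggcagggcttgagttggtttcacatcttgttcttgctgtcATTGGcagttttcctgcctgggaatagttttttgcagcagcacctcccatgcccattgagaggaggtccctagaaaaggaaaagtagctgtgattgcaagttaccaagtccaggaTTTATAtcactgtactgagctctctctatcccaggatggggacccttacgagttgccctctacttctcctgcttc
TTTCACTTC was found in 3 of the 5 promoters (H2-K1, H2-Q4 and H2-Q10) and in 0.505% of all 32851 promoters in the table. GGGATTNCC was found in 2 of the 5 (H2-K1 and H2-Q4) and in 0.938% of all promoters. CCAAT was found in 4 of the 5, H2-Q10 being the exception, and in 37.4% of all, and TATAAA in 5 of the 5 and in 13.6% of all. The promoters of H2-Q4 and H2-Q10 were the most alike, with 72.4% of aligned positions identical, and those of H2-K1 and Gm11127 the least alike, with 47.6%. The match of letters describes these windows of the reference strain and not the binding of a factor.

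All 6 genes lie within a single stretch of chromosome 17 (GRCm38). From one end to the other these are H2-K1 (chr17:33996017-34000347, minus strand), H2-Ea-ps (chr17:34341959-34344645, minus strand, annotated as a polymorphic pseudogene), H2-Q2 (chr17:35342242-35346762, plus strand), H2-Q4 (chr17:35379617-35385290, plus strand), H2-Q10 (chr17:35470089-35474563, plus strand) and Gm11127 (chr17:36055816-36058371, minus strand). H2-K1, H2-Q2, H2-Q4, H2-Q10 and Gm11127 are annotated as protein coding.

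Because class I genes are near copies of each other, reads can be credited to the wrong one. Of the different 50-base words in the annotated transcripts of Gm11127, 78.3% also occur in transcripts of another gene, most often Gm6034. The share was 39.2% for H2-Q4, 16.1% for H2-Q2 (mostly with H2-Q1), 7.73% for H2-Q10 and 6.87% for H2-K1. For H2-Ea-ps it was 0%, so its counts shared no word of that length with another annotated gene. No deposited value of the 6 genes had a fractional part, against 0.951% to 1.18% of the values of all genes. How reads were divided between class I genes was not tested, and their levels remain uncertain to that extent.

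Total counts were 14928748 to 28499405 in macrophages, 11614940 to 30796825 in Schwann cells and 3898778 to 9212710 in the stump, and 3 counts corresponded to 0.0974 to 0.769 CPM (counts scaled to a common library total). Levels are given in CPM after scaling by the trimmed mean of M values (TMM) within each kind of sample, and are compared between animals and not between genes. Macrophage markers summed to 8016 to 16769 CPM in the macrophage libraries. In the sorted Schwann cell libraries 7 Schwann cell markers summed to 161 to 2881 CPM and 6 dendritic cell markers to 2564 to 14842 CPM, so those libraries are called Schwann cells by their label (cells positive for the fluorescent protein and negative for macrophage surface markers). All 6 dendritic cell markers were above 0 there, and their part in the levels of the 6 genes was not tested. In 1 Schwann cell library of immediate day 14, neutrophil markers summed to 7817 CPM, and leaving out any 1 library of that repair comparison left 0 of the 6 genes called.

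Levels of 5 of the 6 genes in macrophages formed steps rather than a continuous range. Gm11127 ranged from 0.804 to 222 CPM over 32 animals, with a median of 98.9 CPM. It was between 0.804 and 5.86 CPM in 7 animals and between 76.6 and 222 CPM in the other 25, with nothing between. The 7 low animals were delayed day 5 replicate 6, immediate day 5 replicate 8, delayed day 14 replicates 1, 3 and 6, and immediate day 14 replicates 3 and 6. In that order Gm11127 stood at 1.59, 1.62, 1.06, 1.68, 1.19, 0.804 and 5.86 CPM.

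The same 7 animals were the lowest for H2-Q2, H2-Q4 and H2-Q10. H2-Q2 was 0.171 to 1.37 CPM in them and 17.6 to 63.7 CPM in the other 25. H2-Q10 was 0.0421 to 0.796 CPM against 15.1 to 48.4 CPM. H2-Q4 was 12.6 to 36.2 CPM against 101 to 309 CPM, so this gene was lower in the 7 animals but still well detected. The largest step between neighbouring animals, on the log2(CPM + 1) scale, was 3.50 for Gm11127, 3.16 for H2-Q10, 2.98 for H2-Q2 and 1.45 for H2-Q4.

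H2-Ea-ps, the only class II gene of the set, had the widest range on the log2(CPM + 1) scale. In macrophages 6 of the 7 animals had 0.0421 to 0.484 CPM and the 25 others had 36.6 to 1213 CPM. The remaining low animal, immediate day 14 replicate 6, had 23.3 CPM, on the upper side of the largest step (4.04 on the log2 scale) but below all 25 others. That animal was also the highest of the 7 for Gm11127 (5.86 CPM) and H2-Q2 (1.37 CPM), and in its Schwann cells H2-Ea-ps had 220 CPM, Gm11127 9.21 CPM and H2-Q2 4.58 CPM, each again the highest of the 7.

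**Figure D1:**
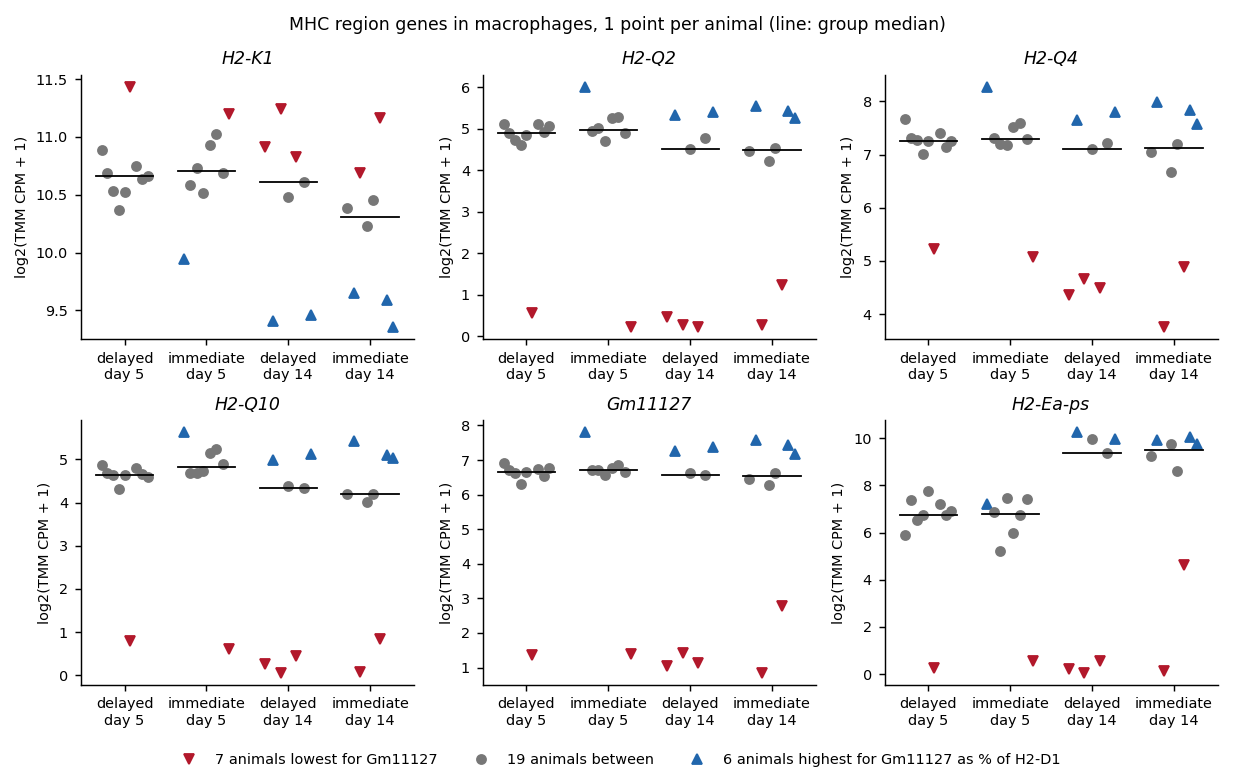
Levels of the 6 genes in macrophages as log2(TMM CPM + 1) by repair group and day, with 1 point per animal and a line at the group median. The 7 animals lowest for Gm11127 (0.804 to 5.86 CPM) sit apart at the bottom for H2-Q2, H2-Q4, H2-Q10 and Gm11127 in all 4 groups, and among the higher values for H2-K1.

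H2-K1 did not form steps of this kind. Its level in macrophages ran from 654 to 2770 CPM with a median of 1575 CPM, and the largest step was 0.30 on the log2 scale. The next largest, 0.28, set apart the 6 lowest animals, at 984 CPM or less. The 7 animals low for the other genes had 1647 to 2770 CPM and the other 25 had 654 to 2085 CPM, so the ranges overlapped, with the 7 towards the upper end. Across the 32 macrophage libraries the Pearson r of H2-K1 with the 5 other genes ran from -0.57 with H2-Q10 to -0.73 with H2-Ea-ps, as a description. This did not hold in every kind of sample. In Schwann cells r ran from -0.03 with H2-Q4 to -0.42 with H2-Ea-ps, and without the low animals it was 0.22 to 0.57 with the class I members and -0.51 with H2-Ea-ps. In the stump it was 0.73 with H2-Q4 and 0.65 with H2-Q10, and -0.12 to -0.31 with the other 3 genes, which without the low animals became 0.37 to 0.61.

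A division into 2 separate clusters, with a step of at least 1 on the log2 scale and at least 3 animals on either side, was found for 5 of the 6 genes in macrophages and for 33 of all 8949 genes tested (0.369%). In Schwann cells it was found for 4 of the 6 (H2-Q2, H2-Q10, Gm11127 and H2-Ea-ps) and for 768 of 10923 genes (7.03%). In the stump, where only 2 of the 7 animals were sampled, it was found for none of the 6 and for 89 of 12228 genes (0.728%). Of all genes tested in macrophages, H2-Q1 was the only one outside the 6 whose lower cluster held exactly the same 7 animals. H2-Q1, a class Ib gene at chr17:35320405-35325099, was 0 to 0.114 CPM in the 7 animals and 4.93 to 18.1 CPM in the other 25.

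In Schwann cells, collected from the same bridges, the 7 animals were again the lowest. Gm11127 was 0.649 to 9.21 CPM in them and 72.4 to 257 CPM in the other 24. H2-Q2 was 0.0541 to 4.58 CPM against 28.2 to 110 CPM, and H2-Ea-ps was 0.325 to 220 CPM against 1038 to 4273 CPM. H2-Q10 was 0 to 5.53 CPM against 12.9 to 41.9 CPM, and its largest step fell inside the 7 animals, after 5 of them. H2-Q4 was the exception, with 53.2 to 148 CPM in the 7 animals and 131 to 448 CPM in the others, ranges that overlapped. H2-K1 overlapped as well, at 2422 to 4177 CPM against 546 to 4022 CPM.

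A further, higher level appeared once each gene was set against another MHC gene in the same library, a scale added after the data had been seen. H2-D1, a classical class I heavy chain, was the reference for the class I genes, and H2-Aa, the alpha chain of the class II A molecule, was the reference for H2-Ea-ps. Counts were not divided by gene length, so these percentages compare animals only. In macrophages Gm11127 was 1.28% to 1.73% of H2-D1 in 19 animals and 3.46% to 3.87% in 6. Those 6 animals were delayed day 14 replicates 2 and 8, immediate day 14 replicates 2, 7 and 8, and immediate day 5 replicate 1.

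On this percentage scale the same 6 animals stood highest for all 5 stepped genes in both cell types. The reference genes themselves differed: H2-D1 had a median of 4710 CPM in macrophages against 6650 CPM in the 19 animals, and of 3667 against 6535 CPM in Schwann cells, where H2-Aa had 2204 against 3738 CPM. In macrophages H2-Aa had a median of 650 CPM in the 6 animals against 290.0 CPM in the 19, but these medians mix the days. Of the 6 animals 5 were of day 14, and of the 19 animals 14 were of day 5. Outside the low animals, macrophage H2-Aa had a median of 231 CPM on day 5 and 763 CPM on day 14. The highest of the 6 animals had 722 CPM, below that day 14 median. On the CPM scale Gm11127 was 145 to 222 CPM in macrophages of the 6 and 76.6 to 119 CPM in the 19, without overlap, but in Schwann cells it was 126 to 257 CPM against 72.4 to 243 CPM. H2-Ea-ps overlapped on the CPM scale in both cell types. In macrophages 3 more genes overlapped on that scale. H2-Q2 was 37.4 to 63.7 CPM in the 6 animals against 17.6 to 38.0 CPM in the 19. H2-Q4 was 189 to 309 CPM against 101 to 202 CPM, and H2-Q10 was 30.5 to 48.4 CPM against 15.1 to 36.7 CPM. How much of the separation came from the reference genes was not tested. H2-Ea-ps in macrophages was 149% to 168% of H2-Aa in the 6 animals, 37.3% to 58.0% in 19 and 0.00458% to 1.55% in the 7 low ones. In Schwann cells the corresponding ranges were 121% to 143%, 35.9% to 53.3% and 0.00580% to 5.42%. H2-Q2 in macrophages was 0.840% to 1.06% of H2-D1 in the 6 animals and 0.318% to 0.522% in the 19. H2-Q10 was 0.710% to 0.815% against 0.260% to 0.411%, and H2-Q4 was 4.62% to 5.15% against 1.84% to 2.59%. No range of these percentages touched its neighbour.

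H2-K1 ran the other way on this scale. In macrophages it was 14.7% to 17.3% of H2-D1 in the 6 animals, 20.2% to 25.8% in the 19 and 22.6% to 36.3% in the 7, the last pair of ranges overlapping. In Schwann cells the ranges were 20.3% to 22.8%, 29.5% to 44.7% and 51.5% to 59.3%, with no overlap. In both cell types the 6 animals lowest for H2-K1 were the 6 highest for Gm11127.

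**Figure D2:**
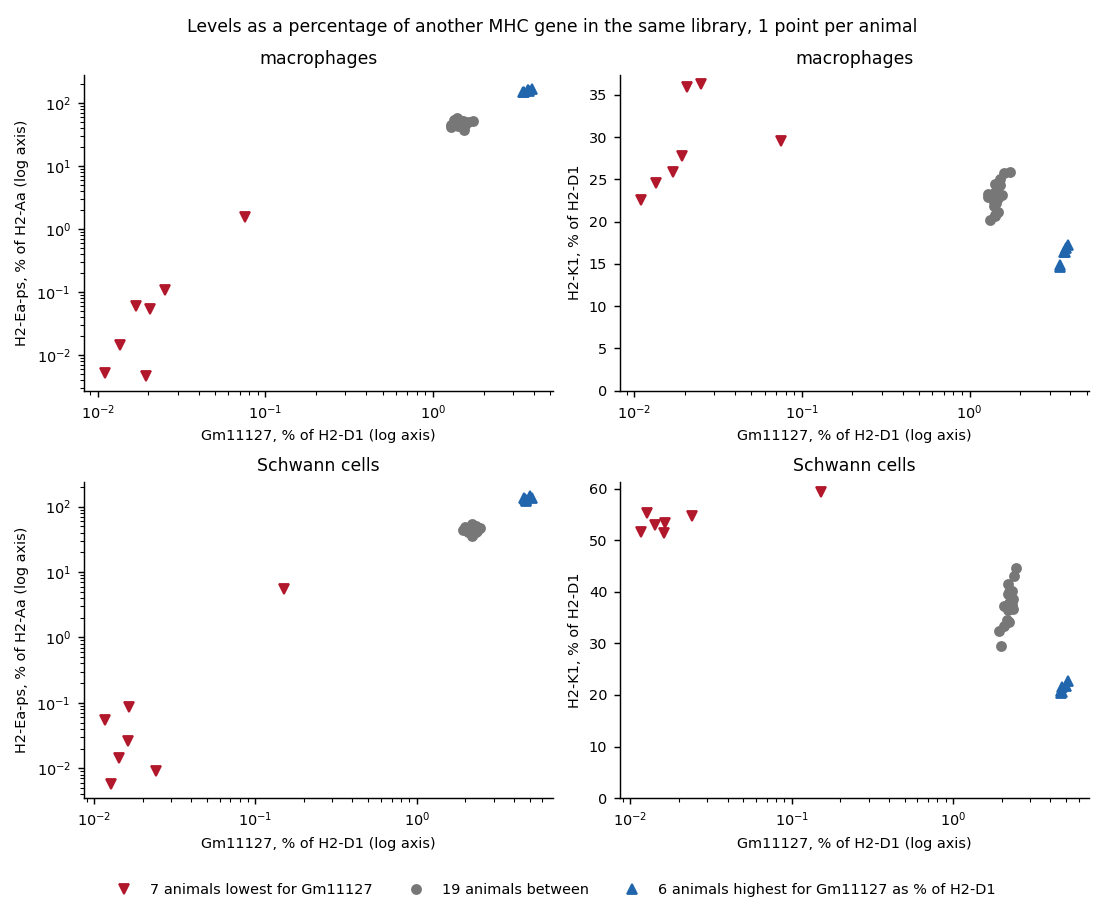
Gm11127 as a percentage of H2-D1 (horizontal, log axis) against H2-Ea-ps as a percentage of H2-Aa (left, log axis) and H2-K1 as a percentage of H2-D1 (right), in macrophages (top) and Schwann cells (bottom), with 1 point per animal. The animals form 3 groups of points, at 1.28% to 1.73% and 3.46% to 3.87% of H2-D1 for the upper groups in macrophages, and H2-K1 is lowest where Gm11127 is highest.

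The stump libraries took no part in the choice of the genes. Both of the 7 low animals sampled there, delayed day 5 replicate 6 and immediate day 5 replicate 8, had 0 counts of H2-Ea-ps and 0 counts of H2-Q2. A count of 0 allows up to 0.769 and 0.376 CPM in these libraries. The other 14 stumps had 37.3 to 150 CPM of H2-Ea-ps and 3.36 to 25.8 CPM of H2-Q2, so the 2 animals stood apart. Gm11127 was 10.2 and 7.08 CPM in the 2 animals and 15.7 to 52.2 CPM in the others.

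For the other class I genes the stump did not separate these animals. H2-Q4 was 231 and 164 CPM in the 2 animals, within the 91.9 to 307 CPM of the others. H2-Q10 was 6.69 and 10.4 CPM against 1.75 to 10.3 CPM, and one of the 2 was thus the highest of all 16. H2-K1 was 816 and 862 CPM against 60.7 to 823 CPM, near or at the top.

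Of the 6 animals with this highest level, only immediate day 5 replicate 1 had a stump library. Its H2-Ea-ps was 152% of H2-Aa, against 36.4% to 54.5% in 13 other stumps. Its H2-Q2 was 2.88% of H2-D1 against 0.981% to 1.84%, and its Gm11127 was 11.1% against 3.32% to 8.54%. Its H2-K1 was 12.9% of H2-D1 against 41.8% to 58.7%, and at 60.7 CPM it was the lowest of the 16 stumps. H2-Q4 and H2-Q10 of this animal lay within the range of the 13.

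**Figure D3:**
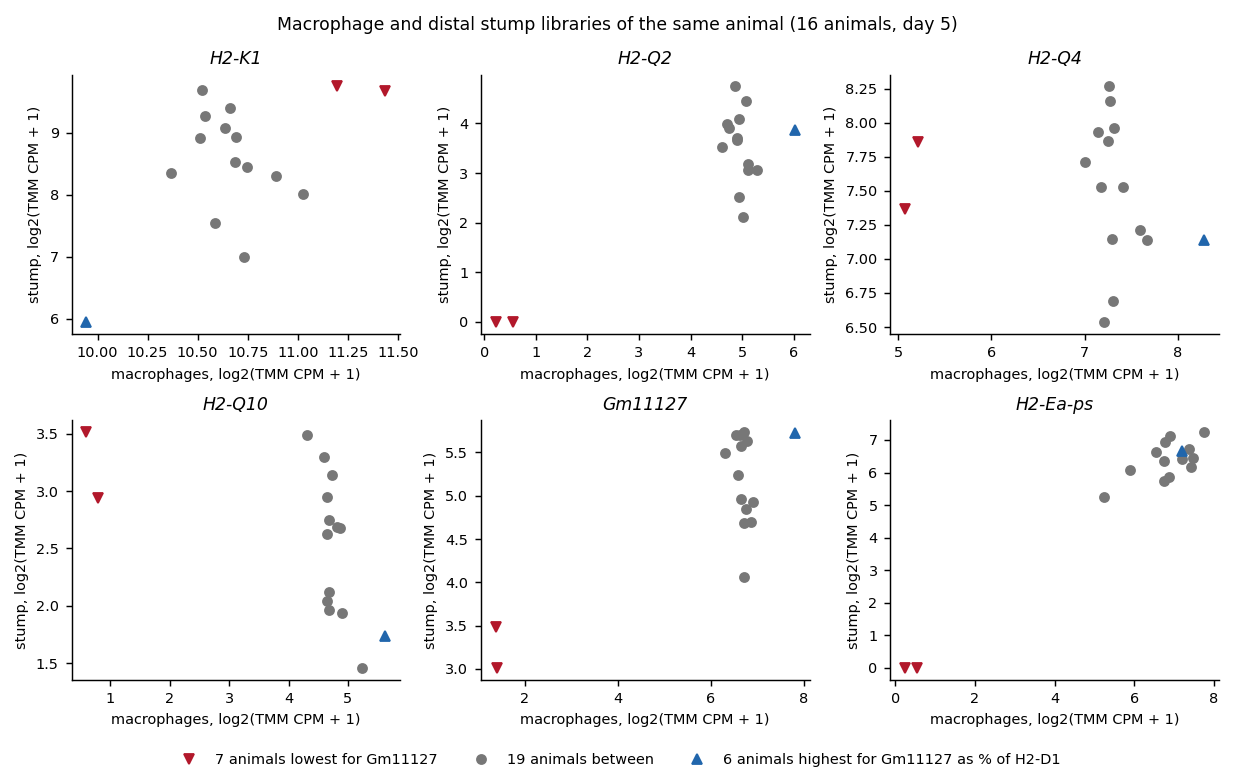
Levels of the 6 genes in macrophages (horizontal) and in the distal stump (vertical) of the same animal, both as log2(TMM CPM + 1), for the 16 day 5 animals with both libraries. The 2 low animals are at 0 CPM in the stump for H2-Q2 and H2-Ea-ps, and for H2-Q4 they are low in macrophages (36.2 and 32.8 CPM) but within the range of the others in the stump.

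The level in the stump was then set against that in the sorted cells of the same animal. Genes with separate clusters in a cell type were tested without the low animals, and H2-K1 in both cell types and H2-Q4 in Schwann cells over all animals. Of 12 relations tested (6 genes by 2 cell types, with Pearson r, Spearman rho and permutation p adjusted over the 12), 1 passed by Pearson r, and none of the 12 passed by Spearman rho. H2-Q10 in the stump was lower where H2-Q10 in macrophages was higher over 14 animals, with r = -0.70 (permutation p = 0.00237, adjusted p = 0.0284) and rho = -0.69 (permutation p = 0.00814, adjusted p = 0.0977). It was -0.60 within delayed repair (8 animals) and -0.56 within immediate repair (6 animals), and without the 2 animals farthest from the median it was -0.55 and no longer passed, so the call rested on those animals. H2-Ea-ps gave r = 0.64 (permutation p = 0.0138, adjusted p = 0.0829) and rho = 0.56 (permutation p = 0.0402, adjusted p = 0.139) over the same 14 animals, and r = 0.29 without the 2 farthest. H2-K1, which has no separate clusters in macrophages, gave r = 0.53 (permutation p = 0.0388, adjusted p = 0.116) and rho = 0.19 (permutation p = 0.467, adjusted p = 0.608) over all 16 animals, and r = 0.02 without the 2 farthest, so it rested on those animals. With Schwann cells, H2-Q2 gave r = -0.62 (permutation p = 0.0253, adjusted p = 0.101) and rho = -0.57 (permutation p = 0.0448, adjusted p = 0.139) over 13 animals, and r = -0.72 without the 2 farthest. H2-Q4 gave r = -0.47 (permutation p = 0.0775, adjusted p = 0.186) and rho = -0.53 (permutation p = 0.0462, adjusted p = 0.139) over 15 animals, and r = -0.68 without the 2 farthest. Neither passed the adjusted threshold.

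The agreement between macrophages and Schwann cells that chose the genes is given here for their order only. Over 31 animals with both libraries, Pearson r of log2(CPM + 1) was 0.99 for Gm11127, 0.98 for H2-Q2, 0.94 for H2-Q10, 0.92 for H2-Ea-ps, 0.90 for H2-K1 and 0.86 for H2-Q4. These were ranks 4, 5, 13, 15, 20 and 28 among 8797 genes tested in both, and 28 genes (0.318%) reached the r of H2-Q4. The animals fall into clusters, and over the 24 animals that were not low r was 0.46 for Gm11127, 0.56 for H2-Q2, 0.50 for H2-Q10, 0.43 for H2-Ea-ps and 0.31 for H2-Q4. For H2-K1 it was 0.90 in the 24 as in all 31, but the 24 still held the 6 animals lowest for H2-K1 in both cell types, so this r is not comparable with the others. The 2 libraries of an animal came from the same cell suspension.

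**Figure D4:**
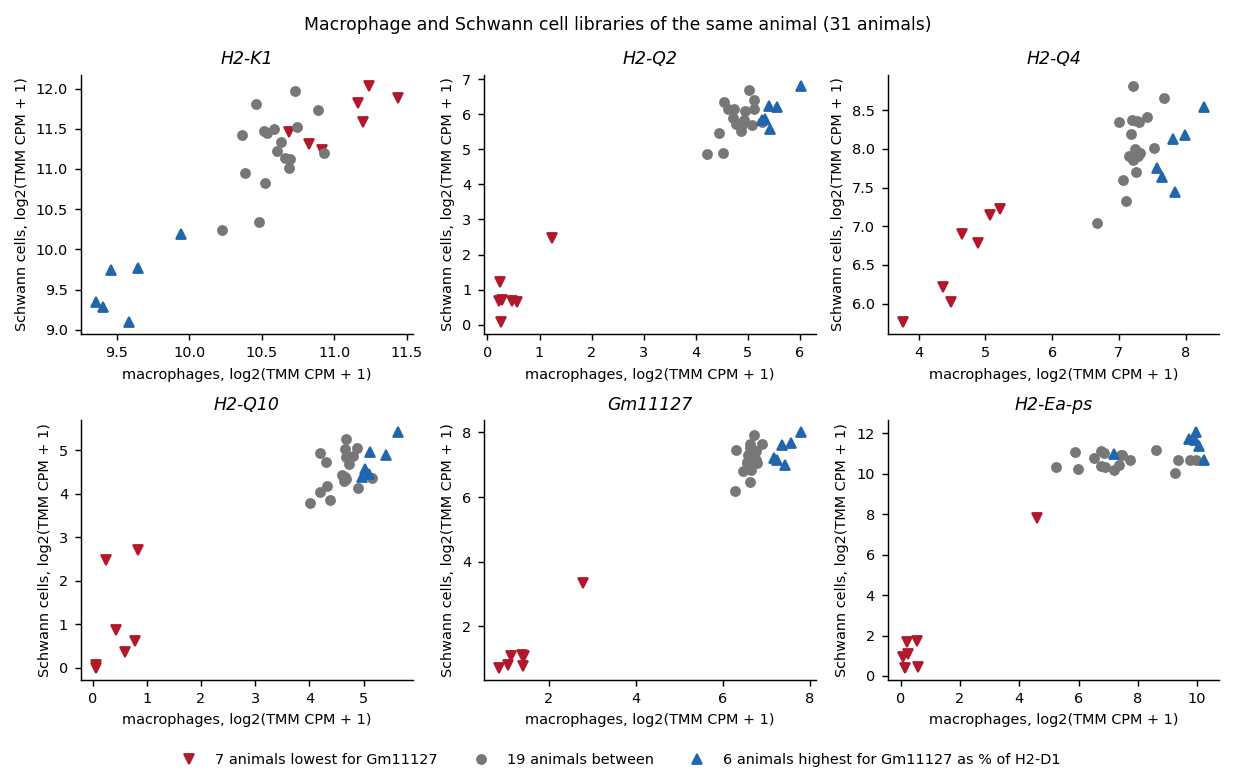
Levels of the 6 genes in macrophages (horizontal) and Schwann cells (vertical) of the same animal, both as log2(TMM CPM + 1), for 31 animals. H2-Q2, H2-Q10 and Gm11127 show the 7 low animals in the lower left corner, H2-Ea-ps shows 6 of them there and the last at 23.3 CPM in macrophages and 220 CPM in Schwann cells, and H2-K1 (r = 0.90) has the 6 animals highest for Gm11127 as a percentage of H2-D1 at its lower left.

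Chromosome 17 held 10 of the 28 genes with agreement at or above that of H2-Q4. Of these 10, 6 are the genes chosen for that agreement, and without them it was 4 of 436 tested genes of the chromosome, against 20 of 8314 tested genes with a position. The 4 were H2-Q1 (r = 0.96), the kinase gene Pim1 (r = 0.96, chr17:29490753-29496112), the ribonuclease gene Rnaset2b (r = 0.94, chr17:6970634-7011299) and Vmn2r96 (r = 0.91, chr17:18573151-18616003). Of the 65 other tested genes between H2-K1 and Gm11127, H2-Q1 alone reached that level, and the median r of the 65 was 0.20, against 0.13 for all placed genes. The X-inactivation gene Xist and 3 of the 4 tested genes of the Y chromosome, which differ by sex, were also among the 28.

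For the other genes of the pathway, agreement between the cell types is given beside that of all genes, since the 6 genes were chosen for theirs. The 15 other class I genes tested had a median r of 0.60, with H2-Q1, H2-L (r = 0.79), H2-T9 (r = 0.79) and H2-Q7 (r = 0.78) the highest. The median was 0.18 for 7 class II genes, 0.19 for 13 genes of peptide loading, 0.27 for 9 genes of the class III region and 0.36 for 12 interferon response genes, against 0.13 for all 8797 genes. The lists were chosen with earlier results of these data known.

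The genes most like each of the 6 over the 32 macrophage libraries were mostly other MHC genes. For H2-K1 these were H2-D1 (r = 0.90, with 0.88 in Schwann cells and 0.86 in the stump), H2-T9 (r = 0.89) and H2-L (r = 0.86). For H2-Q2, H2-Q4, H2-Q10 and Gm11127 they were one another and H2-Q1, with r of at least 0.98 in macrophages. In the stump H2-Q2 and Gm11127 still went together (r = 0.93), whereas H2-Q2 and H2-Q10 did not (r = -0.16), but without the 2 low stumps these were 0.80 and 0.42. For H2-Ea-ps they were Gm11127 (r = 0.91), H2-Q2 (r = 0.88) and Pim1 (r = 0.88, with 0.94 in Schwann cells and -0.26 in the stump). Without the 7 low animals, r in macrophages was 0.30 for H2-Ea-ps with Gm11127 and -0.04 with H2-Q2, so that likeness rested on those animals. For pairs among H2-Q2, H2-Q4, H2-Q10 and Gm11127 it was 0.86 to 0.95. The 25 animals left still held the 6 highest for Gm11127 as a percentage of H2-D1. They also held both days, between which H2-Ea-ps differed in macrophages, so these r values are not comparable with one another. All other r values here include the low animals.

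The steps were found in every repair group. Low, intermediate and high levels were seen in 1, 8 and 0 animals of delayed day 5, in 1, 6 and 1 of immediate day 5, in 3, 2 and 2 of delayed day 14, and in 2, 3 and 3 of immediate day 14. Over both days the counts were 4, 10 and 2 in 16 delayed animals and 3, 9 and 4 in 16 immediate ones. By sex they were 3, 10 and 3 in 16 males and 4, 9 and 3 in 16 females. By day they were 2, 14 and 1 in 17 animals on day 5 and 5, 5 and 5 in 15 animals on day 14. These counts describe the animals and were not tested.

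Repair group did not move any of the 6 genes past the threshold in sorted cells. In macrophages on day 5, Gm11127 was 1.59 to 119 CPM with a median of 99.6 CPM after delayed repair (9 animals) and 1.62 to 222 CPM with a median of 103 CPM after immediate repair (8 animals). H2-Ea-ps was 0.192 to 214 CPM with a median of 108 CPM and 0.469 to 178 CPM with a median of 110 CPM. H2-K1 was 1318 to 2770 CPM with a median of 1617 CPM and 984 to 2344 CPM with a median of 1673 CPM. For each gene the groups overlapped, and each group held 1 low animal.

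By edgeR's quasi-likelihood test, log2 fold changes of delayed over immediate repair in macrophages on day 5 ran from -0.36 (SE 0.51) for H2-Q10 to 0.15 (SE 0.69) for H2-Ea-ps, and 0 of the 6 genes passed at an adjusted p under 0.05, against 0.0357% of 8409 genes. In Schwann cells on day 5 they ran from -0.19 (SE 0.68) for H2-Q2 to 0.06 (SE 0.20) for H2-K1, with 0 of 6 called against 0% of 9604 genes. On day 14 they ran from -0.42 (SE 0.99) for H2-Q10 to 0.25 (SE 0.29) for H2-K1 in macrophages, and from -0.48 (SE 1.38) for H2-Ea-ps to 0.10 (SE 0.46) for H2-K1 in Schwann cells, with 0 of 6 called in each, against 0% of 8589 and 0% of 10226 genes. None of the 6 genes reached an unadjusted p under 0.05 in these 4 comparisons, and DESeq2 called 0 of 6 in each. Over all genes, 505, 190 and 373 genes had an unadjusted p under 0.05 in the 3 comparisons without a call, and DESeq2 called 14, 0 and 3. With standard errors near 1 on the log2 scale for H2-Q2, H2-Q10, Gm11127 and H2-Ea-ps on day 14, a change of 2-fold was not detectable in these groups.

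**Figure D5:**
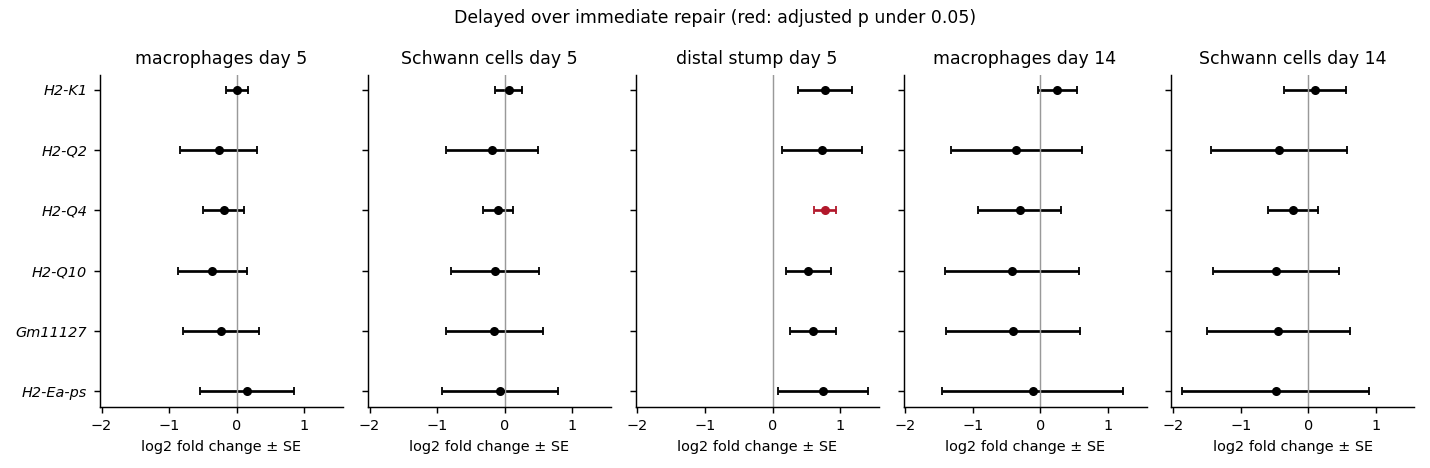
Log2 fold change of delayed over immediate repair with its standard error for the 6 genes in 5 comparisons. The points of the sorted cells lie near 0 with wide bars for the stepped genes, and in the stump all 6 lie above 0, H2-Q4 alone passing at an adjusted p under 0.05 (red).

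In the stump all 6 genes had a positive log2 fold change of delayed over immediate repair, and 1 of 6, H2-Q4, passed the test. H2-Q4 was 140, 249, 286, 209, 307, 231, 183, 243 and 233 CPM in the 9 delayed stumps and 140, 102, 91.9, 184, 147, 141 and 164 CPM in the 7 immediate ones. The groups overlapped in the range from 140 to 184 CPM, with 7 of the 9 delayed stumps above it. The log2 fold change was 0.78 (SE 0.16, adjusted p = 0.00186 by edgeR), and 26.3% of all 12229 genes passed in this comparison. Leaving out any 1 stump kept the adjusted p between 0.000495 and 0.00593.

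The other 5 genes had log2 fold changes of 0.53 (SE 0.33) for H2-Q10, 0.60 (SE 0.34) for Gm11127, 0.73 (SE 0.59) for H2-Q2, 0.74 (SE 0.67) for H2-Ea-ps and 0.78 (SE 0.40) for H2-K1, none past the threshold. H2-K1 was 317 to 823 CPM with a median of 539 CPM after delayed repair and 60.7 to 862 CPM with a median of 257 CPM after immediate repair, both ends of the immediate range being animals of the outer levels. Without immediate day 5 replicate 8, a low animal, H2-K1 (1.20, adjusted p = 0.0228) and H2-Q10 (0.87, adjusted p = 0.0439) passed as well in edgeR's test. In a whole tissue, fewer cells of a type and less RNA per cell cannot be told apart. The 7 macrophage markers summed to 1488 to 2354 CPM in the delayed and 689 to 2076 CPM in the immediate stumps, the 6 dendritic cell markers to 50.8 to 88.0 and 42.3 to 72.4 CPM, and the 7 Schwann cell markers to 97.8 to 596 and 1035 to 2440 CPM. Their part in the result was not tested.

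Most related genes that passed in the stump were also higher after delayed repair. Over all 12229 genes tested, 12.8% rose and 13.5% fell. Of 13 other class I genes tested, 8 rose and none fell, among them H2-T24 (log2 fold change 0.85), H2-Q5 (1.13), H2-M3 (0.70) and H2-K2 (0.92). Of 13 genes of peptide loading 6 rose, among them the class I transactivator Nlrc5 (0.99) and the peptide transporter subunits Tap1 (0.89) and Tap2 (0.56). Of 7 class II genes 3 rose (the class II transactivator Ciita 0.87, H2-DMa 0.65 and the invariant chain Cd74 0.62). Of 12 class III region genes 3 rose (Notch4, Ltb and Aif1) and 1 fell (Clic1). Of 12 interferon response genes 5 rose, among them Oas2 (1.11) and Irf1 (0.73). The median log2 fold change was 0.82, 0.54, 0.64, 0.62 and 0.72 in these lists and 0.74 over the 6 genes, against 0.02 over all 12229 genes tested. In sorted cells no gene of these lists passed on either day by edgeR. Over all genes there, 3 of 8409 passed in macrophages on day 5. In Schwann cells on day 5 and in both cell types on day 14, 0 genes passed.

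Sex moved none of the 6 genes past the threshold. With repair and day in the model, 0 of 6 passed in macrophages (3.25% of 8949 genes passed), 0 in Schwann cells (0.0641% of 10923) and 0 in the stump (0.0654% of 12229). DESeq2 called 0 of 6 in each. The only unadjusted p under 0.05 was that of H2-K1 in the stump, 0.83 lower in males on the log2 scale (SE 0.35, adjusted p = 0.321 by edgeR), with 8 stumps of either sex.

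Between days, 1 of 6 genes passed in each cell type. H2-Ea-ps in macrophages was 2.45 higher on day 14 on the log2 scale (SE 0.80, adjusted p = 0.0218 by edgeR), in a comparison where 27.4% of 8949 genes passed. Leaving aside the 7 low animals, it was 36.6 to 214 CPM with a median of 115 CPM in 15 animals on day 5 and 389 to 1213 CPM with a median of 913 CPM in 10 animals on day 14, without overlap. Over the same animals the class II genes H2-Aa, H2-Ab1 and H2-Eb1 had medians of 231, 479 and 230 CPM on day 5 and 763, 1247 and 1007 CPM on day 14. Macrophage markers summed to 9394 to 16769 CPM on day 5 and 8016 to 11954 CPM on day 14, and dendritic cell markers to 13.4 to 83.9 CPM and 12.5 to 58.2 CPM, and their part was not tested. In Schwann cells, where H2-Ea-ps was 1173 to 2263 CPM on day 5 outside the low animals, its log2 fold change between days was 0.03 (SE 0.88). H2-Q4 in Schwann cells had a log2 fold change of -0.71 on day 14 (SE 0.22, adjusted p = 0.0253 by edgeR), where 19.7% of 10923 genes passed. With scaling by library size alone, the day effect on H2-Q4, Schwann cells being the sample, was -0.49 and did not pass (adjusted p = 0.0803 by edgeR). Low and high levels numbered 5 and 5 of 15 animals on day 14 and 2 and 1 of 17 on day 5, and their part in the day comparisons was not tested.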

How the data were processed

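Counts per gene for 32 macrophage, 31 Schwann cell and 16 distal stump libraries were used. Sorted cells had been amplified with SMART-Seq v4 and stump RNA had been depleted of ribosomal RNA, so kinds of sample were fitted apart. The authors trimmed single-end reads with cutadapt 1.8 and mapped them to mm10 with TopHat2 2.1.1, per the submitters' processing notes, which also name Cufflinks 2.2.1 and Cuffnorm. The deposited values are estimated counts per gene, 0.951% to 1.18% of them not whole, and were rounded here. All 79 columns matched a labelled sample.

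Only genes reaching 5 CPM in 6 or more of the libraries compared entered edgeR 4.0.16 (R 4.3.3, TMM scaling, quasi-likelihood test, Benjamini-Hochberg over all genes tested), after a test on simulated data. Standard errors were derived from the F statistic. Correlations used log2(TMM CPM + 1) and 2-sided permutation tests with 100000 resamples (numpy 2.4.6). P-values measure the spread between animals. Counting limits (3 counts for a value of 0) cover counting error only. The alternatives were DESeq2 1.42.0, library size scaling, no filter, sex as a covariate, replicate number as a block, leaving out each library, other pseudocounts, and, added after seeing the data, percentages of H2-D1 or H2-Aa. Gene positions and transcripts came from GENCODE vM21 and promoters from RefSeq.

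The 6 genes and all lists were chosen with earlier results of these data known. Named genes were the 6, the 3 most correlated with each in macrophages, and up to 4 of each list by smallest p or largest r. Genes named by agreement on chromosome 17, H2-Q1 and the class II genes beside H2-Ea-ps were added after their values were seen.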

Additional observations from a re-analysis of the deposited data

Results flagged for a closer look

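Within groups of 7 to 9 animals, 25 of 60 combinations of gene and group held 1 library whose gap to its nearest neighbour took up an unusual part of the range on the log2(CPM + 1) scale. Chance gives this in about 1 of 20 independent groups, but these genes were chosen for levels that vary between animals, and the combinations share animals and correlated genes, so the count is a description and not a test. In every case the library came from 1 of the 7 animals low for Gm11127, and these are the groups that held a single such animal, apart from 2 cases on day 14.

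Delayed day 5 replicate 6 was the lowest of its 9 macrophage libraries for H2-Q2 (0.481 CPM), H2-Q4 (36.2 CPM), H2-Q10 (0.722 CPM), Gm11127 (1.59 CPM) and H2-Ea-ps (0.192 CPM), and the highest for H2-K1 (2770 CPM). In its Schwann cells it was the lowest for H2-Q2 (0.573 CPM), H2-Q10 (0.529 CPM), Gm11127 (1.19 CPM) and H2-Ea-ps (1.10 CPM), and in its stump for H2-Q2 (0 CPM), Gm11127 (10.2 CPM) and H2-Ea-ps (0 CPM). Immediate day 5 replicate 8 was the lowest of its macrophage libraries for H2-Q2 (0.171 CPM), H2-Q4 (32.8 CPM), H2-Q10 (0.512 CPM), Gm11127 (1.62 CPM) and H2-Ea-ps (0.469 CPM). In its Schwann cells it was the lowest for H2-Q2 (0.602 CPM), H2-Q10 (0.278 CPM), Gm11127 (0.694 CPM) and H2-Ea-ps (2.31 CPM), and in its stump for H2-Ea-ps (0 CPM). Immediate day 14 replicate 3 was the lowest of 8 Schwann cell libraries for H2-Q10 (0 CPM) and H2-Ea-ps (0.325 CPM). Only flagged combinations are listed, and these animals were also the lowest in some others. Among those were H2-Q2 (0 CPM) and Gm11127 (7.08 CPM) in the stump of immediate day 5 replicate 8.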

How the results depend on the processing

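Over 106 results and 977 alternatives, 915 kept their direction and their side of the threshold, or stayed within the spread. In no repair comparison of sorted cells was any of the 6 genes called under an alternative. Signs of uncalled fold changes near 0 changed when single libraries were left out. On day 5 in macrophages the range was -0.11 to 0.083 for H2-K1, -0.43 to 0.010 for Gm11127 and -0.056 to 0.31 for H2-Ea-ps, and in Schwann cells -0.067 to 0.18 for H2-K1, -0.41 to 0.011 for H2-Q2, -0.22 to 0.013 for H2-Q4, -0.36 to 0.065 for H2-Q10, -0.38 to 0.023 for Gm11127 and -0.29 to 0.10 for H2-Ea-ps. On day 14 it was -0.44 to 0.11 for H2-Ea-ps in macrophages and -0.17 to 0.30 for H2-K1 in Schwann cells. In the stump, leaving out 1 library gave 1 to 3 called genes, 0.58 to 1.20 for H2-K1 and 0.38 to 0.87 for H2-Q10, both upper values being those without immediate day 5 replicate 8. With sex as a covariate, Schwann cells on day 5 gave 0.086 for H2-Q10, 0.034 for Gm11127 and 0.028 for H2-Ea-ps.

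Samples were not treated as paired by replicate number, and whether the numbers pair them was not settled. The lowest correlation of same-numbered animals was -0.284 to -0.023 over the 5 comparisons. The median of that correlation was 0.258 in macrophages on either day and -0.055 in the stump. In Schwann cells it was 0.088 on day 5 and 0.066 on day 14. With the replicate number as a block, Schwann cells on day 5 gave 0.34 for H2-Q2, 0.049 for H2-Q4, 0.40 for H2-Q10, 0.36 for Gm11127 and 0.34 for H2-Ea-ps, none called. The block left the count of called genes at 1 in the stump and 0 elsewhere. In macrophages 4 of the 8 delayed animals with a partner on day 5 correlated best with their own number, and 5 of 7 on day 14. In Schwann cells it was 2 of 7 on day 5 and 1 of 7 on day 14, and in the stump 1 of 7.

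Sex effects in macrophages changed sign for H2-Q10 with DESeq2 (0.00028) and without the filter (0.0043), and with library size scaling for H2-Q4 (-0.093), Gm11127 (-0.042) and H2-Ea-ps (-0.036). The same happened for H2-K1 in Schwann cells with library size scaling (-0.098) and for H2-Q2 in the stump without the filter (-0.011). Library size scaling left 0 genes called between days in Schwann cells. With CPM from library totals, the stump agreement was 0.66 for H2-K1 (then past the threshold) and 0.11 for H2-Q2 with macrophages, and 0.043 for Gm11127 and 0.022 for H2-Ea-ps with Schwann cells. Without the 2 farthest animals it was -0.55 for H2-Q10 (no longer past the threshold) and -0.40 for Gm11127 with macrophages, and -0.28 for H2-K1 with Schwann cells. On the percentage scale the number of animals below the largest step became 30 for H2-K1 in macrophages, 7 for H2-Q4 in Schwann cells, and 1 for H2-Q4 and 13 for H2-Q10 in the stump. The cause of these changes was not tested.

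Only 2 low animals and 1 high animal had a stump library, which limits what the stump shows. The stump libraries were also the shallowest.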
